A study of Mus musculus with 12 samples.

Results

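The peaks described here are those on mouse chromosome 14 whose midpoint lies within 6 Mb of Pbrm1, the gene disrupted in the study, with the interval over Wdfy4 left out. Of 68689 peaks in the table, 439 met this rule. Of these, 246 lay below Pbrm1 in coordinate, 2 inside it and 191 above it, and chromosome 14 held another 2098 peaks beyond them. In mm10 Pbrm1 spans chr14:31019138-31121592 and Wdfy4, whose interval held 14 peaks, spans chr14:32959547-33193855 (RefSeq, GRCm38.p6). The rule used position alone, but the neighbourhood was proposed after genotype differences had been seen in it. For that reason the genotype values are given as a description with no test, and the tests below concern the sorted populations, which the rule did not use.

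The libraries were made by Omni-ATAC, a form of ATAC-seq in which the Tn5 transposase cuts and tags DNA that is not wrapped tightly in nucleosomes. B cells of the germinal center, where activated B cells mutate their antibody genes and compete for affinity, came from spleens of C57BL/6 mice of 8 to 10 weeks and were isolated by sorting. The 4 groups were Pbrm1-/- CB (HOMO CB), Pbrm1-/- CC (HOMO CC), Pbrm1+/+ CB (WT CB) and Pbrm1+/+ CC (WT CC), with 3 libraries each. The labels do not spell out CB and CC, and no other allele or treatment is labelled for either genotype. The count columns carry the prefix Pbrm1AID, which is not explained, and how, or on which strain, the allele was made is not stated there either. Nothing says that libraries came from separate mice, so p-values measure the spread between libraries, which may be technical.

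Pbrm1 encodes a bromodomain subunit found in PBAF, a SWI/SNF complex that slides or evicts nucleosomes and so changes which DNA is accessible. ATAC peaks at gene starts mark promoters that most cells of a type keep open, whereas peaks within and between genes are more often enhancers that differ between cell types and stages. The 439 peaks lay nearest to 77 protein-coding genes, among them Bap1, a deubiquitinase of histone H2A, Prkcd, a kinase that limits B cell activation, Mapk8, a stress-activated kinase, and Wapl, which releases cohesin from chromatin.

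Promoters of 5 of these genes show what the gene-start peaks are made of. Those of Sema3g, a secreted guidance protein, of Timm23, part of the mitochondrial import channel, and of Bmpr1a, a type I receptor for bone morphogenetic proteins, overlap peaks called lower in HOMO CB. Those of Mapk8 and of Glud1, the mitochondrial glutamate dehydrogenase, lie in peaks that were not called. Each is the RefSeq window (GRCm38.p6) of 250 bases before and 50 after the gene's start, read 5′ to 3′ on the gene's strand, and capitals mark matches to the searched motifs on either strand.
Sema3g, chr14:31217623-31217922, plus strand: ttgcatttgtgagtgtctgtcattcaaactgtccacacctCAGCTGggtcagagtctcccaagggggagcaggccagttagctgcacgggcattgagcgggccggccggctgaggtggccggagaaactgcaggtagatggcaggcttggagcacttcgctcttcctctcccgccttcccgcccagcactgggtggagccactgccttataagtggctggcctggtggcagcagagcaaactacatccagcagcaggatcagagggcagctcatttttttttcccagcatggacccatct
Timm23, chr14:32201842-32202141, minus strand: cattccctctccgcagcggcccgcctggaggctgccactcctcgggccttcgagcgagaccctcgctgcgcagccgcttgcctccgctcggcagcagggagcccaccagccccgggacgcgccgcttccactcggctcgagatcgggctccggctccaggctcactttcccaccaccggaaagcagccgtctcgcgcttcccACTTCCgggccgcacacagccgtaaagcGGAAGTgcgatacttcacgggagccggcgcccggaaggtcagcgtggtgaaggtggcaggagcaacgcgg
Bmpr1a, chr14:34502497-34502796, minus strand: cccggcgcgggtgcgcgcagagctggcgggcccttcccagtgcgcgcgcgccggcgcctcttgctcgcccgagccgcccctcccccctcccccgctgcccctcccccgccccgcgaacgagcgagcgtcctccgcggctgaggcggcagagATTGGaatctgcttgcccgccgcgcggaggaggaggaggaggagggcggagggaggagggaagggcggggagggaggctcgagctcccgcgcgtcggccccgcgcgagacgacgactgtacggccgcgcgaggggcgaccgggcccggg
Mapk8, chr14:33447109-33447408, minus strand: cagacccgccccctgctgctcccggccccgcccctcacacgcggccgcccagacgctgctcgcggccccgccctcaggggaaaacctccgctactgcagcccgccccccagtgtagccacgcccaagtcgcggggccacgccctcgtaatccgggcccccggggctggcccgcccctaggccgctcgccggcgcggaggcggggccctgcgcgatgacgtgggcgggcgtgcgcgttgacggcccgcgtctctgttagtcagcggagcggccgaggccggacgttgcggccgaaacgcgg
Glud1, chr14:34310477-34310776, plus strand: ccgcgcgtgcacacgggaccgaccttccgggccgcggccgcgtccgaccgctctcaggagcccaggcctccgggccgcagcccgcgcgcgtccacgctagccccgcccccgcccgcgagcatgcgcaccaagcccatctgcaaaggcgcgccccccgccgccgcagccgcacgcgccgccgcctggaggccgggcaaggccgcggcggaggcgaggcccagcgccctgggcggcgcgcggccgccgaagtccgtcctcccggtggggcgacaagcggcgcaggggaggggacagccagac
The motifs searched were CCAAT (the NF-Y box), GGAAGT (an ETS core), TGACTCA (an AP-1 site), CAGCTG and CACGTG (E-boxes), on both strands, and none of the marked matches overlaps another. The Sema3g window held 1 CAGCTG, the Timm23 window 2 GGAAGT and the Bmpr1a window 1 CCAAT, whereas the Mapk8 and Glud1 windows held no match. Among all 32817 mouse promoter windows of that table, 37.4% held CCAAT, 23.8% GGAAGT, 16.3% CAGCTG, 7.15% CACGTG and 5.2% TGACTCA, so the motifs found here occur in many other promoters. The windows differ in CpG content. Sema3g had 8 CpG dinucleotides, near the median of 7 over all promoters (quartiles 3 and 20), against 35 at Timm23, 48 at Bmpr1a, 45 at Mapk8 and 51 at Glud1. CpG-rich windows therefore occur among both the called and the uncalled promoters shown.

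Library totals in peaks ran from 6431354 counts (HOMO CC 1) to 45590454 (HOMO CB 3), and the median member held 48 to 280 counts in a library. Values below are in CPM, that is counts divided by the library's total in peaks and its scaling factor, per 1e6. The limit of 3 counts that a count of 0 allows is 0.444 CPM in HOMO CC 1, which covers counting error only. At the gene start, 7 of 10 germinal center B cell markers had a peak (group means of 20.8 to 55.1 CPM), against 0 of 5 T cell markers and 0 of 4 myeloid markers, though the starts of some markers are not in the promoter table used. Of 4 erythroid markers, Klf1 alone had one (6.25 to 12.3 CPM), and of 4 dendritic cell markers Flt3 (21.9 to 40.5 CPM) and Batf3 (4.82 to 7.54 CPM) did. The part of other cells in the results was not tested, and in bulk libraries fewer cells with an open site and less opening per cell cannot be told apart.

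At Pbrm1 itself neither peak was called in either population. The peak at its start, peak_52811 (chr14:31019227-31019727), which it shares with the divergent nucleolar GTPase gene Gnl3, had 26.5, 29.6 and 36.0 CPM in HOMO CB, against 29.0, 26.5 and 39.3 CPM in WT CB. In CC the values were 28.4, 26.0 and 36.2 CPM in HOMO and 24.5, 32.3 and 39.5 CPM in WT. The genotypes overlapped in both populations, and the log2 fold changes were -0.04 (SE 0.18) in CB and -0.09 (SE 0.18) in CC. Here SE, or ± after a fold change in parentheses, is a standard error derived from the edgeR F test. It is the absolute log2 fold change divided by the square root of F. The peak inside the gene, peak_52812, was weaker, at 2.49, 4.23 and 3.63 CPM in HOMO CB and 2.54, 1.03 and 2.75 CPM in WT CB. In CC it had 4.14, 3.35 and 4.12 CPM in HOMO and 3.42, 1.14 and 2.88 CPM in WT. These groups also overlapped, at log2 fold changes of 0.67 (SE 0.33) in CB and 0.63 (SE 0.33) in CC. The labels do not say which part of Pbrm1 was removed, and these peaks are no check of them. The nearest called peak, peak_52813 at the start of Smim4, a small membrane protein gene 6846 bp above Pbrm1, had 14.9, 12.7 and 13.1 CPM in HOMO CB and 21.6, 17.9 and 19.8 CPM in WT CB. In CC it had 14.2, 10.9 and 13.2 CPM in HOMO and 17.5, 18.1 and 18.6 CPM in WT. All 6 HOMO libraries lay below all 6 WT libraries there, at log2 fold changes of -0.56 (SE 0.14) and -0.52 (SE 0.14).

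Over the whole neighbourhood, peaks were called more often lower than higher in Pbrm1-/- cells. A call is an adjusted p under 0.05 from edgeR's quasi-likelihood test with Benjamini-Hochberg adjustment over all 68689 peaks. In HOMO CB against WT CB, 9 members were called higher (beside 0.779% of all peaks) and 47 lower (beside 3.85%), 56 in all or 12.8%, beside 4.63% of all peaks. In HOMO CC against WT CC, 7 were higher (beside 0.578%) and 33 lower (beside 2.17%), 40 in all or 9.11%, beside 2.75% of all peaks. In both populations 5 members were higher (beside 0.252% of all peaks) and 31 lower (beside 1.58%), 36 in all, beside 1.83%. At least one population gave a call at 60 members, beside 5.54% of all peaks. Because the neighbourhood was chosen for these calls, their share is a description of the choice. Libraries of the genotypes did not overlap at 153 members in CB, beside 23.5% of all peaks, and at 122 in CC, beside 21%.

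The members also differed in how widely their fold changes spread. The median log2 fold change was -0.045 in CB and -0.0098 in CC, both close to 0, while the standard deviation over members was 0.61 in CB and 0.58 in CC. Over the 68250 peaks outside the neighbourhood it was 0.37 in CB and 0.34 in CC. The quartiles differed by less. In CB they were -0.35 and 0.18 at members, against -0.21 and 0.20 outside. In CC they were -0.30 and 0.18, against -0.18 and 0.19. The median absolute log2 fold change was 0.25 at members against 0.20 outside in CB, and 0.22 against 0.19 in CC. The median standard error of a fold change in CB was 0.22 at members and 0.20 over all peaks. A change of at least 2-fold in the same direction in both populations was fitted at 20 members, or 4.56%, beside 0.52% of all peaks. All 20 lay above Pbrm1, with 5 higher and 15 lower, and none of the 246 members below it reached that size. The effects in CB and in CC correlated across members at a Pearson's r of 0.89 (0.92 above Pbrm1, 0.77 below it), against 0.71 outside. These are correlations across peaks, which are not independent, and CB and CC libraries of one number may share animals.

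**Figure D1:**
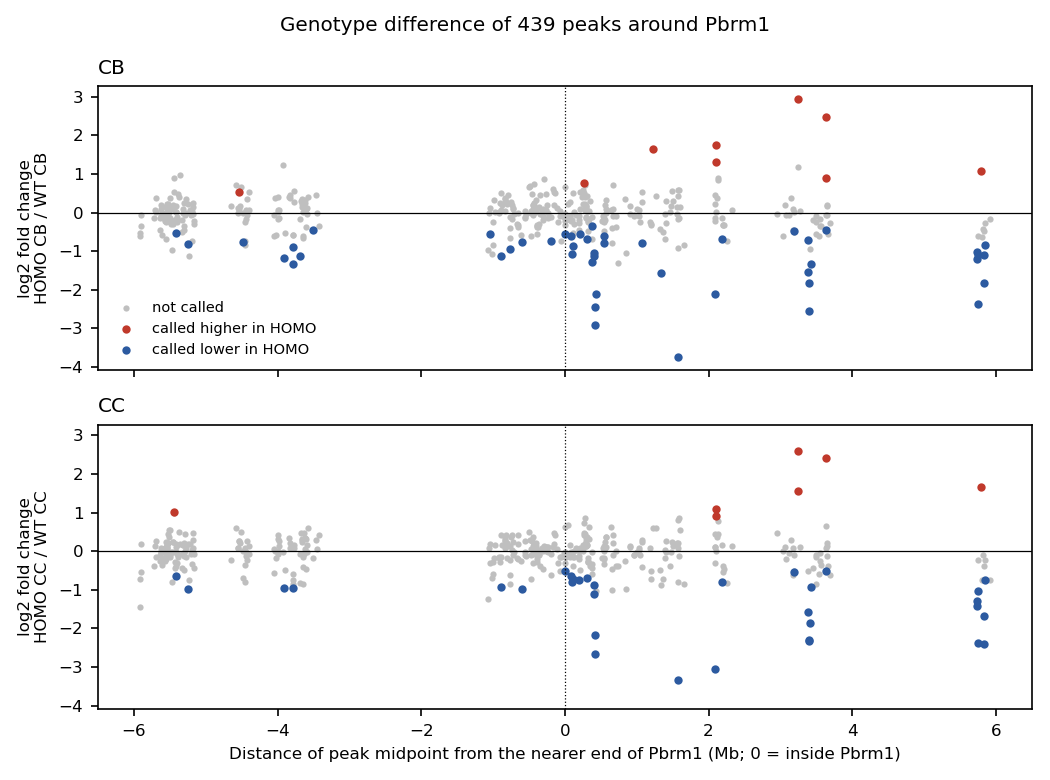
Log2 fold change of each of the 439 peaks (vertical axis), HOMO over WT, in CB (upper panel) and CC (lower panel), against the distance of the peak from the nearer end of Pbrm1 in Mb (horizontal axis). Red points were called higher in HOMO (9 in CB, 7 in CC), blue points called lower (47 and 33) and grey points not called, and the points beyond 2-fold in both populations all lie to the right of Pbrm1.

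The sides of Pbrm1 differed. Above Pbrm1, 8 members were higher and 34 lower in HOMO CB (42 of 191, 22%, beside 4.63% of all peaks), and 6 were higher and 27 lower in HOMO CC (33, 17.3%, beside 2.75%). Below Pbrm1, 1 was higher and 13 lower in HOMO CB (14 of 246, 5.69%, beside 4.63% of all peaks), and 1 was higher and 6 lower in HOMO CC (7, 2.85%, beside 2.75%), so that the calls below Pbrm1 were close to the share over all peaks. The spread of log2 fold changes was 0.79 in CB and 0.77 in CC above the gene, and 0.41 in CB and 0.36 in CC below it. The side below was therefore closer to the peaks outside than the side above, in both populations. The difference between the sides was seen before the neighbourhood was set and was not tested.

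In steps of 1 Mb the calls did not thin out evenly away from Pbrm1, beside shares of 4.63% in CB and 2.75% in CC over all peaks. Within 1 Mb above it, 18.2% of 88 members were called in CB and 11.4% in CC. From 3 to 4 Mb above, the share was 27.8% of 36 members in each population, and from 5 to 6 Mb above it was 57.1% of 14 members, all but one of them nearest to Ccser2. Within 1 Mb below Pbrm1, 4.26% of 94 members were called in CB and 2.13% in CC, both under the share over all peaks, whereas from 3 to 4 Mb below it was 12.5% and 5.0% of 40, most of them in Arhgef3. No peak lay from 2 to 3 Mb below or 4 to 5 Mb above. Steps with few peaks, such as the 6 members from 1 to 2 Mb below or the 19 from 2 to 3 Mb above, give shares that a single peak moves.

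**Figure D2:**
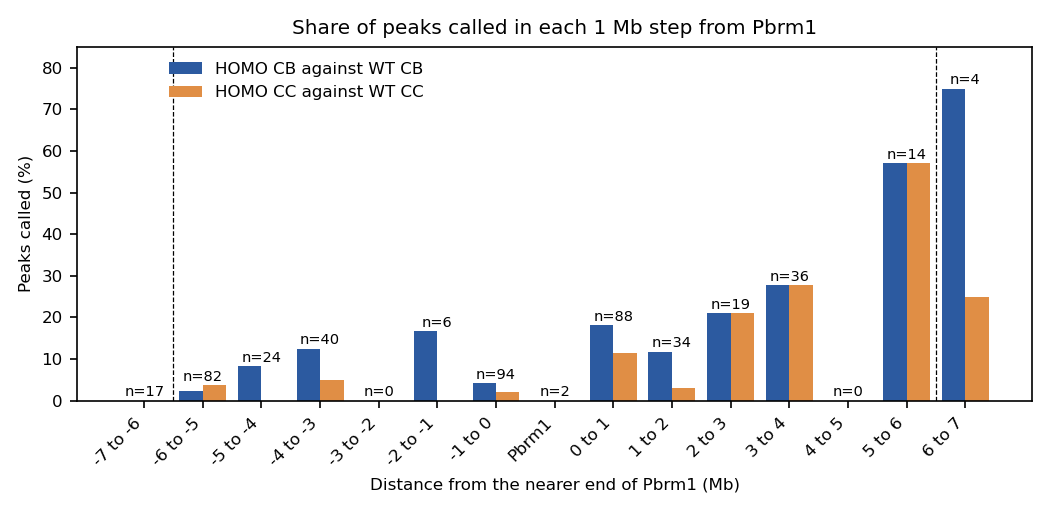
Percentage of peaks called in HOMO against WT (vertical axis) in each 1 Mb step from Pbrm1 (horizontal axis), in CB (blue) and CC (orange), with the number of peaks over each step. Dashed lines mark the 6 Mb limits. The highest share inside them is 57.1%, of 14 peaks, from 5 to 6 Mb above Pbrm1, and the steps below the gene reach 16.7% at most, in a step of 6 peaks.

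The limits of 6 Mb did not mark a visible border on the upper side. The last members inside the upper limit were peak_53017 near Rgr (log2 fold change -0.18 in CB and -0.75 in CC, not called), peak_53016 (-0.27 and -0.23, not called) and peak_53015 at the start of Ccser2 (-0.85 and -0.75, lower in both). Just outside, in Ghitm, a mitochondrial inner membrane protein gene, peak_53018 was not called (0.39 and 0.18), peak_53019 was lower in both (-0.79 and -0.68) and peak_53020 was lower in CB (-0.46, with -0.44 in CC not called). At the lower limit none of the 3 members inside was called, the outermost of them being peak_52565 (-0.62 and -1.43), and neither were the 3 peaks outside (-0.11 and -0.57 at the nearest, peak_52564).

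Sites called higher in Pbrm1-/- cells were few and lay away from gene starts. All genotype values here and below are differences in read counts. Whether the sequence near Pbrm1 differed between the genotypes was not tested. The strongest was peak_52979 (chr14:34363642-34364142), between genes and 5553 bp from Fam25c. It had 9.43, 7.32 and 5.94 CPM in HOMO CB, against 0.488, 0.573 and 1.49 CPM in WT CB, and 7.25, 7.67 and 7.56 CPM in HOMO CC, against 0.854, 0.421 and 2.06 CPM in WT CC. Every HOMO library exceeded every WT library of its population, at log2 fold changes of 2.94 (SE 0.41) in CB and 2.60 (SE 0.39) in CC. The adjoining peak_52978 moved the same way (1.17 ± 0.34 in CB, not called, and 1.56 ± 0.35 in CC). The peaks named for large genotype effects were picked among those called in both populations with groups apart. At these peaks, here and below, the lack of overlap follows from that choice.

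Next came peak_52996 (chr14:34752325-34752825), 4592 bp from Wapl, with 18.6, 17.8 and 18.2 CPM in HOMO CB and 1.85, 2.41 and 4.91 CPM in WT CB. In CC it had 15.5, 16.7 and 17.5 CPM in HOMO and 2.02, 1.69 and 5.07 CPM in WT, for log2 fold changes of 2.49 (SE 0.35) and 2.41 (SE 0.35). The HOMO libraries were nearly level here, whereas WT library 3 stood above the other WT libraries in both populations. The start of Wapl itself was not called, at log2 fold changes of -0.16 in CB and -0.04 in CC. The neighbouring peak_52995 was called higher in CB (0.89 ± 0.24).

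Another such site lay inside Arhgap22, which encodes a GTPase-activating protein for Rac. There peak_52954 had 9.43, 11.7 and 12 CPM in HOMO CB and 3.51, 1.60 and 4.11 CPM in WT CB, with 7.84, 7.82 and 9.01 CPM in HOMO CC and 3.10, 4.03 and 4.31 CPM in WT CC. The groups did not overlap, and the log2 fold changes were 1.76 (SE 0.23) in CB and 1.10 (SE 0.23) in CC. The adjacent peak_52955 was also called higher in both (1.31 ± 0.18 and 0.90 ± 0.18). In the same gene peak_52960 was called lower in both, and 8427 bp outside it peak_52949 was lower by more: 1.44, 0.651 and 0.919 CPM in HOMO CB and 3.37, 3.89 and 4.31 CPM in WT CB, with 0.591, 0.335 and 0.713 CPM in HOMO CC and 4.81, 4.57 and 4.34 CPM in WT CC. Its log2 fold changes were -2.11 (SE 0.30) and -3.04 (SE 0.33), so peaks of opposite sign stood close together at this gene. Of the 29 genes nearest to a called member, 6 had both a higher and a lower one, and 48 genes had none called.

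The largest fall was at peak_52927 (chr14:32694296-32694796), inside 3425401B19Rik. HOMO CB libraries had 0.524, 0.434 and 0.404 CPM, against 6.34, 6.87 and 4.71 CPM in WT CB, and HOMO CC libraries had 0, 0.372 and 0.555 CPM, against 3.96, 4.27 and 4.48 CPM in WT CC. These rest on 4, 16 and 18 counts in HOMO CB and 0, 10 and 21 in HOMO CC, against 60 to 142 in WT CB and 51 to 135 in WT CC. All HOMO libraries lay far below all WT libraries, at log2 fold changes of -3.76 (SE 0.34) and -3.35 (SE 0.35). The other 9 members nearest to this gene were not called.

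Colq, which encodes the collagen tail that anchors acetylcholinesterase, had lower counts at each of its members in HOMO. All 5 of them were called lower in CB, beside 3.85% of all peaks. They formed a run of 25312 bp with no uncalled peak between (chr14:31531159-31556470). In the middle of it peak_52871 had 1.18, 0.868 and 0.404 CPM in HOMO CB and 5.76, 3.55 and 6.23 CPM in WT CB, with 1.04, 0.484 and 0.581 CPM in HOMO CC and 3.03, 3.61 and 4.87 CPM in WT CC. The log2 fold changes were -2.91 (SE 0.35) and -2.68 (SE 0.37), with no overlap between genotypes. Next to it peak_52872 had 1.57, 2.03 and 1.52 CPM in HOMO CB and 11.8, 8.59 and 8.29 CPM in WT CB (-2.46 ± 0.30). The outer peaks of the run changed by less, with log2 fold changes of -1.04 and -1.14 in CB at its lower end. Only peak_52873 at the upper end was not called in CC (-1.04).

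The longest run lay from 3 to 4 Mb above Pbrm1 and covered Bmpr1a, 9230112D13Rik and Ldb3, a gene of the muscle Z-disc. It held 6 successive members over 47748 bp (chr14:34501809-34549556), each called lower in at least one population. At the start of Bmpr1a, peak_52981 had 1.83, 2.17 and 1.64 CPM in HOMO CB and 6.59, 5.38 and 4.51 CPM in WT CB, with 1.48, 2.35 and 1.72 CPM in HOMO CC and 5.98, 5.84 and 5.50 CPM in WT CC. HOMO libraries lay at 2.35 CPM or less and WT libraries at 4.51 CPM or more, for log2 fold changes of -1.54 (SE 0.24) and -1.59 (SE 0.24). The adjoining peak_52982, which covers 217 of the 300 promoter bases shown, changed by less (-0.70 ± 0.15 in CB, and -0.51 ± 0.15 in CC, where it was not called). In 9230112D13Rik, peak_52984 had 3.80, 2.60 and 1.55 CPM in HOMO CB and 10.1, 9.51 and 6.23 CPM in WT CB, at log2 fold changes of -1.83 (SE 0.33) in CB and -2.30 (SE 0.35) in CC. In Ldb3, peak_52986 had 4.72, 5.02 and 6.43 CPM in HOMO CB and 15.8, 12.3 and 13.3 CPM in WT CB, and 8.43, 5.55 and 6.68 CPM in HOMO CC and 11.8, 12.5 and 13.3 CPM in WT CC. Its fold changes were -1.33 (SE 0.18) and -0.92 (SE 0.18), again with no overlap.

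Ccser2, near the upper limit, held all calls from 5 to 6 Mb above Pbrm1. Of its 13 members, 8 were called in CB or CC, 7 of them lower, beside 5.54% of all peaks called. At peak_53008, 4571 bp from the gene, HOMO CB libraries had 0.655, 0.841 and 4.19 CPM and WT CB libraries 12.1, 11.2 and 11.2 CPM, while HOMO CC libraries had 2.22, 0.819 and 2.43 CPM and WT CC libraries 9.86, 10.4 and 7.43 CPM. The log2 fold changes were -2.38 (SE 0.52) and -2.37 (SE 0.55), and HOMO CB 3 stood well above the other HOMO CB libraries. Inside the gene peak_53009 went the other way, with 6.42, 5.32 and 3.86 CPM in HOMO CB and 2.98, 2.41 and 1.86 CPM in WT CB, and 7.10, 4.99 and 3.06 CPM in HOMO CC and 1.40, 1.20 and 1.76 CPM in WT CC (1.07 ± 0.30 and 1.67 ± 0.31). The HOMO libraries were uneven at this gene. HOMO CB 2 was the lowest HOMO CB library at 6 of the 7 lower peaks, and HOMO CC 2 the lowest HOMO CC library at all 7. Without HOMO CB 2 the value at peak_53008 was -1.94 in CB, and without HOMO CC 2 it was -1.95 in CC, neither of them called.

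Below Pbrm1 the gene with the most called peaks was Arhgef3, which encodes an exchange factor for RhoA. Of its 26 members, 4 were called, all lower. The largest fall among these in CB was at peak_52683, from 3 to 4 Mb below Pbrm1, with 3.41, 2.12 and 2.53 CPM in HOMO CB and 7.42, 5.04 and 6.60 CPM in WT CB, and 2.81, 3.98 and 3.38 CPM in HOMO CC and 7.14, 5.48 and 7.56 CPM in WT CC. Groups did not overlap, at log2 fold changes of -1.34 (SE 0.23) and -0.95 (SE 0.22). Cacna1d, an L-type calcium channel gene, had 3 of 36 members called, all lower, the largest being peak_52723 (-1.12 ± 0.21 in CB and -0.94 ± 0.21 in CC). Zmiz1, a transcriptional coactivator gene with the most members (59), had 1 higher and 1 lower. Prkcd had none of 17 called in either population. Of all peaks, 5.54% were called in CB or CC, and lower calls outnumbered higher ones (3.85% against 0.779% in CB). These counts per gene are small and are no result about the genes.

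**Figure D3:**
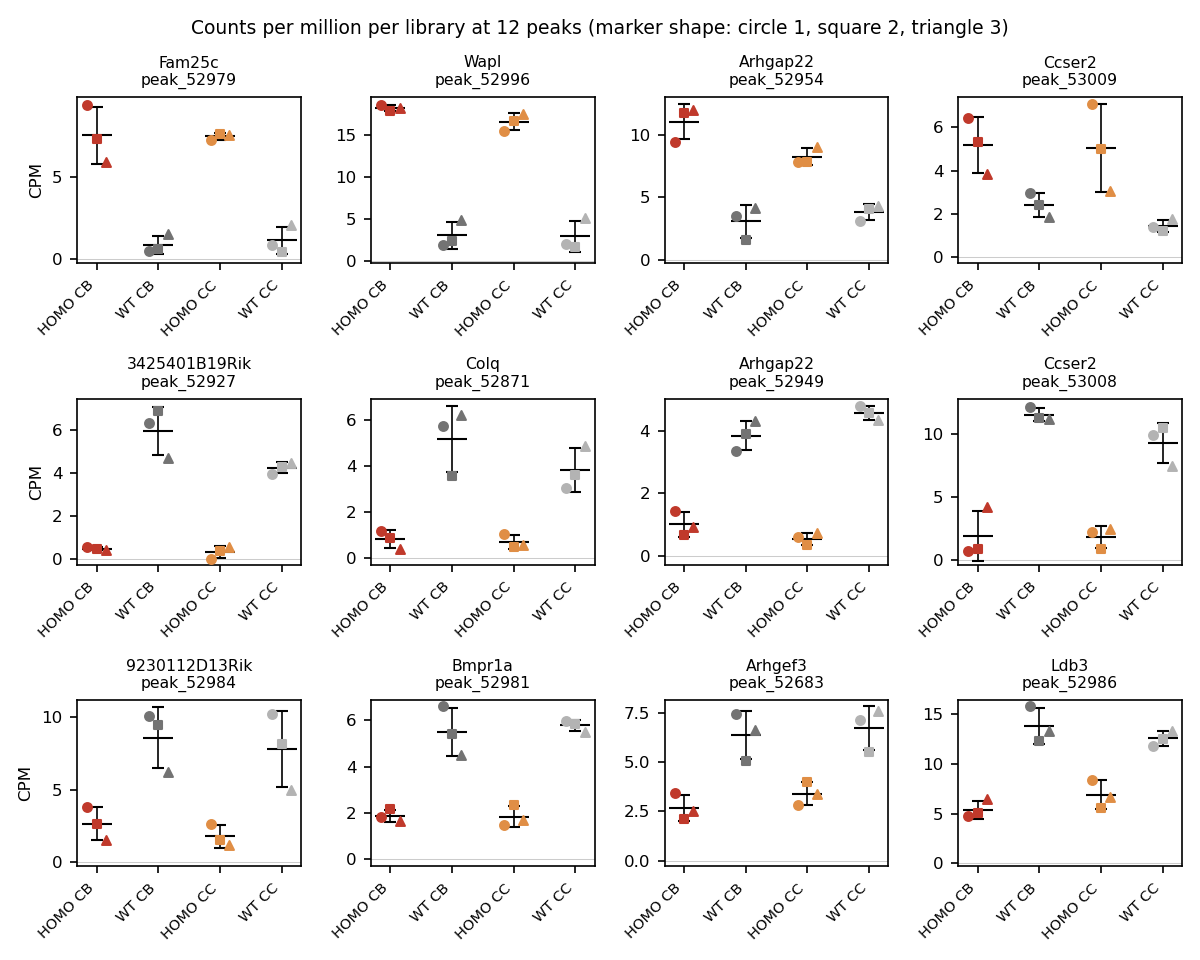
CPM (vertical axes, linear) in each library of HOMO CB, WT CB, HOMO CC and WT CC (horizontal axes) at 12 peaks named by nearest gene. Circles, squares and triangles are libraries 1, 2 and 3, and lines with bars are the group mean ± SD (n = 3). In the top row HOMO lies above WT in both populations (for peak_52979, 5.94 CPM or more in HOMO and 2.06 or less in WT), and in the lower rows it lies below. The choice of these peaks required that the groups be apart.

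Called gene starts all moved in one direction. Of 83 members within 1 kb of a RefSeq start, 16 were called in CB, all lower (19.3%, beside 9.85% of all gene-start peaks), and 8 in CC, all lower (9.64%, beside 6.02%). Elsewhere inside genes, 5 members were higher and 24 lower in CB (11.8% of 245, beside 3.35%), and 4 higher and 19 lower in CC (9.39%, beside 1.93%). Between genes, 4 were higher and 7 lower in CB (9.91% of 111, beside 2.83%), and 3 higher and 6 lower in CC (8.11%, beside 1.65%). All 11 members called higher in either population thus lay away from gene starts, among 44 of 356 called there, beside 3.9% of all peaks away from gene starts. Few peaks were called higher anywhere, 0.779% of all peaks in CB and 0.578% in CC. The shares beside gene starts are for either direction, and all gene-start peaks were not split by direction. The absence of higher calls at gene starts is therefore not shown to be particular to the neighbourhood. The 30 members that hold a whole promoter window included called and uncalled starts.

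At gene starts the changes were mostly under 2-fold. The start of Sema3g, peak_52823, had 5.37, 5.45 and 5.40 CPM in HOMO CB and 11.8, 12.4 and 10.1 CPM in WT CB, and 6.21, 6.48 and 6.84 CPM in HOMO CC and 13.0, 12 and 9.28 CPM in WT CC. The genotypes did not overlap (-1.07 ± 0.17 and -0.79 ± 0.17). The shared start of Timm23 and Parg, an enzyme that removes poly(ADP-ribose), had 11.9, 9.68 and 9.71 CPM in HOMO CB and 17.0, 16.3 and 19.6 CPM in WT CB, but 14.2, 9.90 and 9.70 CPM in HOMO CC and 14.8, 13.5 and 14.9 CPM in WT CC. It was called in CB alone (-0.79 ± 0.16, against -0.40 ± 0.16 in CC), and the difference between these effects was not called. Mettl6, a tRNA methyltransferase gene, changed by more at its start in CB (-1.28 ± 0.19, with -0.59 ± 0.19 in CC not called).

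Other strong promoters stood close to called sites without a call of their own. The start of Mapk8 had 53.7, 57.9 and 59.6 CPM in HOMO CB and 47.4, 49.2 and 67.6 CPM in WT CB, and that of Glud1 72.4, 64.9 and 60.5 CPM in HOMO CB and 56.4, 62.5 and 76.1 CPM in WT CB. Both overlapped between genotypes, at log2 fold changes in CB of 0.06 (SE 0.11) and 0.01 (SE 0.11). Next to the Glud1 start, peak_52975 at the start of Shld2, a shieldin subunit gene needed for class switch joining, was called lower in both (-0.49 ± 0.14 in CB and -0.55 ± 0.14 in CC). Bap1 was not called at its start (0.01 in CB and 0.02 in CC).

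**Figure D4:**
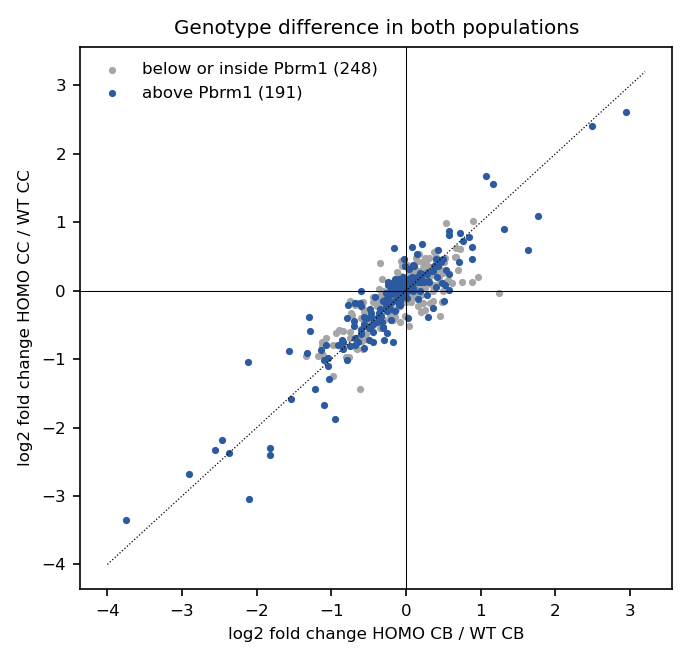
Log2 fold change in CC (vertical axis) against that in CB (horizontal axis), HOMO over WT, for each of the 439 peaks, with peaks above Pbrm1 and peaks below or inside it in separate colours and a dotted line of equality. Pearson's r across peaks is 0.92 above and 0.77 below, and the points far from 0 in both populations lie above Pbrm1.

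Grouped by function, few gene-end peaks were called and all of these were lower in HOMO. The lists were drawn up with earlier results known, and each gene-end peak counts once per list. Of 15 chromatin and transcription peaks, 2 were lower in HOMO CB (Actr8, an INO80 subunit, at -0.56, and Parg at -0.79) and none was called in CC, with median log2 fold changes of -0.14 in CB and -0.026 in CC. Gene-start peaks as a whole were called at 9.85% in CB and 6.02% in CC, and with 13 to 16 peaks in each list a single call moves a share widely, so these counts are no result about the lists. Of 16 signalling peaks, 4 were lower in CB (Sema3g, Bmpr1a, Slmap and Arhgef3) and 2 in CC (Sema3g and Arhgef3), with medians of -0.039 in CB and -0.0044 in CC. Of 13 metabolism and transport peaks, 2 were lower in CB (Timm23 and the Shld2 side of Glud1) and 1 in CC (the Shld2 side of Glud1), with medians of -0.24 in CB and -0.16 in CC. Of 13 peaks of RNA, ribosome and cell structure genes, 2 were lower in CB (Capn7 and Nisch) and 1 in CC (Nisch), with medians of -0.097 in CB and -0.091 in CC. Over all peaks the median was 0.0074 in CB and 0.024 in CC.

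The sorted populations could be tested, since neither the rule nor the choice of the neighbourhood used them. In HOMO, 18 members were called higher (beside 4.78% of all peaks) and 18 lower (beside 2.44%) in CC than in CB, 36 in all or 8.2%, beside 7.22% of all peaks. In WT, 14 were higher (beside 3.35%) and 16 lower (beside 2.08%), 30 in all or 6.83%, beside 5.43% of all peaks. The total shares are close to the background. Over all peaks higher calls outnumbered lower ones, whereas members had no such excess of higher calls in either genotype. This split by direction was not tested. Of the calls, 21 were made in both genotypes, each with the same sign, 15 in HOMO alone and 9 in WT alone. Among all 68689 peaks, 2538 were called in both genotypes, and all 2538 had the same sign. The equal signs are therefore not particular to the members. With the replicate block, which pairs CC and CB libraries of a number within a genotype, 88 members were called in HOMO (46 higher, 42 lower, beside 22.2% of all peaks) and 87 in WT (37 higher, 50 lower, beside 22.1%). Without the block, 13 of 191 members above Pbrm1, where most genotype calls lay, were called in HOMO (6.81%) and 8 in WT (4.19%). Of the 246 below it, 23 were called in HOMO (9.35%) and 22 in WT (8.94%). Over all peaks the shares were 7.22% in HOMO and 5.43% in WT.

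The clearest population difference was at Prkcd, whose product restrains B cell responses. Inside the gene, peak_52772 had 12.9, 16.5 and 19.7 CPM in HOMO CC and 30.6, 31.3 and 34.6 CPM in HOMO CB, and 14.9, 16.6 and 18.6 CPM in WT CC and 33.4, 31.7 and 30.6 CPM in WT CB. CC lay below CB in every library of both genotypes. Values for named peaks here and below are from the fit without the block, which does not pair libraries. The log2 fold change was -0.94 (SE 0.13, adjusted p = 0.000216) in HOMO and -0.93 (SE 0.13, adjusted p = 0.000491) in WT (edgeR). Its neighbour peak_52771 changed by less, at -0.52 (SE 0.11, adjusted p = 0.00574) in HOMO and -0.60 (SE 0.11, adjusted p = 0.00329) in WT in the same edgeR test.

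Chat, which encodes the enzyme that makes acetylcholine, was also less open in CC. There peak_52913 had 1.92, 2.68 and 2.03 CPM in HOMO CC and 6.81, 5.59 and 4.44 CPM in HOMO CB, and 2.79, 4.03 and 2.69 CPM in WT CC and 7.95, 8.59 and 5.87 CPM in WT CB. In edgeR its log2 fold change was -1.27 (SE 0.25, adjusted p = 0.00306) in HOMO and -1.22 (SE 0.24, adjusted p = 0.00465) in WT. A smaller difference of that sign stood 1027 bp from Anxa11, a calcium-dependent membrane-binding protein gene, at peak_52643 (-0.48 ± 0.13 with adjusted p = 0.0284 in HOMO and -0.62 ± 0.13 with adjusted p = 0.00935 in WT, edgeR). Without WT CC 2 the WT value there was no longer called (adjusted p = 0.0588, edgeR).

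Other sites were more open in CC. The largest such change among the named peaks was at peak_52657, 15124 bp from Dennd6a, a gene of the DENN family of Rab regulators. It had 3.70, 3.24 and 2.19 CPM in HOMO CC and 0.393, 0.651 and 0.65 CPM in HOMO CB, and 3.57, 4.39 and 3.32 CPM in WT CC and 0.585, 1.26 and 1.26 CPM in WT CB. Its log2 fold change was 2.24 (SE 0.34, adjusted p = 0.000378) in HOMO and 1.87 (SE 0.33, adjusted p = 0.00218) in WT (edgeR). At peak_52883, 2355 bp from Ankrd28, the change was 0.63 (SE 0.13, adjusted p = 0.00602) in HOMO and 0.82 (SE 0.14, adjusted p = 0.0016) in WT (edgeR). Inside Arhgef3, at peak_52695, it was 1.11 (SE 0.20, adjusted p = 0.00179) in HOMO and 0.91 (SE 0.20, adjusted p = 0.00859) in WT (edgeR). Inside Capn7, a calpain-family protease gene, peak_52838 was called higher in WT alone (0.74 ± 0.26 with adjusted p = 0.0947 in HOMO and 1.31 ± 0.28 with adjusted p = 0.00811 in WT, edgeR). Leaving out WT CB 1 ended the WT calls at Capn7 (adjusted p = 0.0602, edgeR) and Arhgef3 (adjusted p = 0.0605, edgeR), and leaving out WT CC 2 also ended that at Arhgef3 (adjusted p = 0.0637, edgeR).

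**Figure D5:**
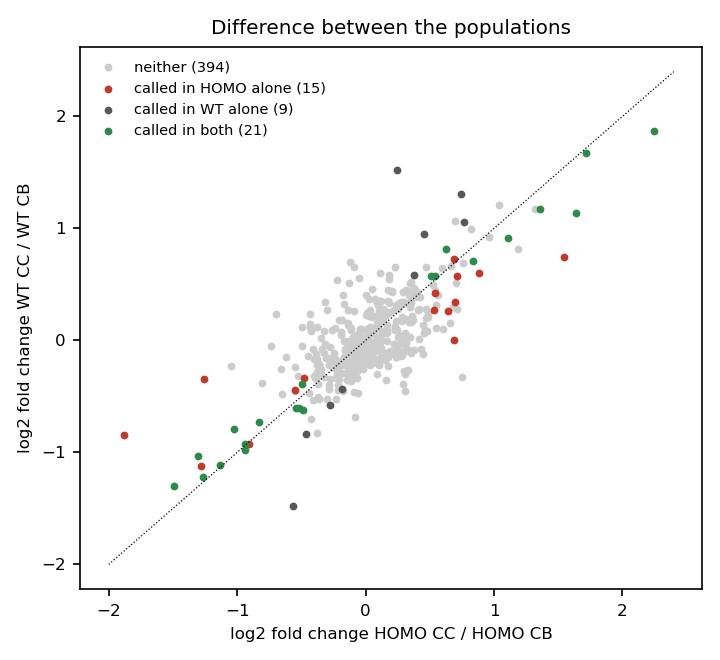
Log2 fold change of CC over CB in HOMO (horizontal axis) and in WT (vertical axis) for the 439 peaks, with a dotted line of equality, coloured by the genotype in which the peak was called. The 21 peaks called in both genotypes lie in the quadrants of equal sign, 15 were called in HOMO alone, 9 in WT alone and 394 in neither. Of all 68689 peaks, 2538 were called in both genotypes, all with equal sign.

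Whether the genotype effect differed between CC and CB was tested directly. No member was called for the difference of effects in edgeR, beside 0% of all peaks, and none in DESeq2. Neither of these fits paired CB and CC libraries of a number. With the replicate block, 0 members were called as well, beside 0% of all peaks. In the edgeR fit without the block, 8 members, or 1.82%, had an unadjusted p under 0.05, beside 1.18% of all peaks. Both shares are smaller than that p threshold itself, so this fit may miss differences. The calls made in one population or one genotype alone are therefore not shown to be particular to it. Without the block, the median standard error of the difference of effects over members was 0.30 on the log2 scale. For the genotype effect in CB it was 0.22.

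Individual libraries carried part of these values. At the 20 members changed at least 2-fold in both populations, WT CC 3 was the WT library nearest to HOMO at 16 (80%), against 46.6% of the 337 such peaks outside, and WT CB 3 at 12 (60%), against 44.8%. HOMO CB 1 was the HOMO library nearest to WT at 11 of the 20 and HOMO CC 1 at 7, against 68.5% and 71.8% outside. HOMO CC 3 was the nearest at 9 (45%), against 13.6% outside, and HOMO CB 3 at 6 (30%), against 15.1%. Deviations from the group mean were shared between CB and CC libraries of one number. Across members their correlation was 0.62 for WT 3, 0.53 for HOMO 3, 0.35 for HOMO 1, 0.32 for HOMO 2, 0.30 for WT 2 and 0.16 for WT 1, and across the peaks outside it was 0.52 for WT 3, 0.44 for HOMO 3, 0.34 for HOMO 1, 0.22 for HOMO 2, 0.23 for WT 2 and 0.21 for WT 1. Without HOMO CC 2 the members called in HOMO CC against WT CC numbered 3 (with 0.0247% of all peaks called), and without HOMO CB 2 those called in HOMO CB against WT CB numbered 17 (with 0.496% of all peaks called), while the spread of the fold changes over members stayed at 0.56 to 0.65 when any one library was left out.

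Among the named peaks, leaving out HOMO CC 2 ended the CC calls at peak_52979 (2.60), peak_52996 (2.41), peak_52954 (1.14), peak_53009 (1.64), peak_52871 (-2.49), peak_52984 (-2.28), peak_52683 (-1.08) and peak_52986 (-0.77), with the log2 fold change then fitted in parentheses. The CC call at peak_53008 (-1.95) ended without HOMO CC 2 as well. Leaving out HOMO CB 2 ended the CB calls at peak_52984 (-1.91), peak_52683 (-1.19), peak_53009 (1.03) and peak_53008 (-1.94). The CC call at peak_52954 also ended without HOMO CC 3, WT CC 1 or WT CC 2, and that at peak_52986 without HOMO CC 3. At peak_53008, peak_53009 and peak_52683 the calls also ended without other single libraries, from both genotypes. The CB call at peak_53009 and the CC call at peak_53008 each ended in 9 of the 12 single omissions. In all of these cases the direction stayed as it was.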

How the data were processed

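Raw read counts in 68689 peaks of 501 bp were deposited by the authors for 12 libraries on mm10, with the 3 replicate numbers of each group taken from the labels. FastQC, BWA, deepTools and R 4.2.1 appear in the submitters' processing notes, with no roles. Which tool called the peaks, which counted reads, whether duplicates were removed, whether cuts were shifted for Tn5 and whether libraries were pooled is not stated in the sources used here.

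Counts were scaled with TMM factors and fitted over all peaks in edgeR 4.0.16 (R 4.3.3), giving each group its own mean, with the robust quasi-likelihood setting and F tests, which are two-sided. filterByExpr removed no peak. Calls used a Benjamini-Hochberg adjusted p under 0.05. TMM factors also enter the CPM values, and a prior count of 2 the log2 CPM. Alternatives were DESeq2 1.42.0, other scalings and filters, a replicate block, a neighbourhood of 3 Mb, Wdfy4 kept in, and libraries left out. The test was checked on simulated data. Python 3.11.15 with pandas 2.3.3 and numpy 2.4.6, and the data.table package (1.17.8) in R, handled the values, and matplotlib 3.10.9 drew the plots.

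The members and gene lists were chosen with earlier results of these data known. Named peaks were up to 8 per direction with the largest mean genotype effect (called in CB and CC, groups apart, average log2 CPM of at least 1, 1 per gene), the 4 of smallest p per direction for CC against CB in WT, the peaks nearest Pbrm1 and gene-end peaks of the lists. This gave 4 higher and 8 lower peaks for genotype. Other called peaks, runs of them and the peaks at the limits are named as examples picked after their values were seen. Genes come from RefSeq (GRCm38.p6), as the nearest protein-coding span, and a gene start is any start of the promoter sequences within 1 kb.

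Within a genotype, CC and CB libraries of equal number correlated at 0.21 to 0.52 in their deviations from group means (6 pairs), and those of unequal number at -0.34 to 0.12 (12 pairs), so these were taken as pairs and blocked counts are given with that comparison. Between HOMO and WT, libraries of equal number correlated at -0.01 to 0.40 (12 pairs), and those of unequal number at -0.30 to 0.18 (24 pairs). The ranges overlap, and equal numbers were not taken as pairs there. Any shift that libraries of one number share across genotypes is therefore not modelled in the main genotype fit.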

Additional observations from a re-analysis of the deposited data

How the results depend on the processing

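The numbers of members called depended on single libraries and on the replicate block more than on the test or scaling. With DESeq2's scaling in edgeR, or DESeq2 itself, all 5 counts stayed within 1.5 times, and so did those with Wdfy4 kept in and with peaks under a log2 CPM of 1 removed. Using no filter gave the same counts, since filterByExpr had removed no peak. Leaving out 1 library gave 17 to 64 calls in CB (with 0.496% to 5.98% of all peaks called), 3 to 52 in CC (0.0247% to 4.97%), 15 to 38 for CC against CB in HOMO (2.94% to 8.05%), 7 to 36 in WT (1.89% to 6.46%) and 0 for the difference of effects, with a spread of 0.61 to 0.65 in CB and 0.56 to 0.64 in CC and an r of 0.84 to 0.89 between CB and CC effects. CB calls numbered 17 without HOMO CB 2, 24 without HOMO CB 3 and 24 without WT CB 1. CC calls numbered 3 when HOMO CC 2 was left out, 18 for HOMO CC 3, 17 for WT CC 1 and 16 for WT CC 2. CC against CB calls in HOMO numbered 23 without HOMO CB 2, 19 without HOMO CB 3 and 15 without HOMO CC 2, and in WT 7 without WT CB 1, 17 without WT CB 2, 15 without WT CC 1 and 10 without WT CC 2. Other omissions gave more calls than the full set: 64 in CB and 52 in CC without HOMO CC 1, and 60 and 45 without HOMO CB 1. Fewer samples leave fewer residual degrees of freedom whichever library is left out, and the cause of the changes was not tested.

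The replicate block was the number for the genotype comparisons and the genotype and number for CC against CB. With it, calls numbered 100 in CB (27 higher, 73 lower), 88 in CC (27 higher, 61 lower), 88 for CC against CB in HOMO and 87 in WT; all peaks also had more, at 13.2% in CB and 10.4% in CC. Across genotypes the number-2 libraries correlated near 0 and those of the other numbers positively, so equal numbers were not taken as pairs, and 8 of 12 libraries correlated best with one of their own number. Within 3 Mb of Pbrm1 (243 members) calls numbered 29 in CB, 17 in CC, 20 for CC against CB in HOMO and 16 in WT, with a spread of 0.53 in CC. With Wdfy4 kept in (453 members) the spread was 0.64 in CB, and with peaks under a log2 CPM of 1 removed (408 members left) r was 0.90. Leaving out both libraries of a number was chosen after seeing the data. Without both WT 3 libraries, CC against CB in WT had 18 calls, with 3.92% of all peaks called. The spread was then 0.65 in CB and 0.64 in CC, and r was 0.87. Without both HOMO 2 libraries there were 14 calls in CB, 5 in CC and 9 for CC against CB in HOMO. Of all peaks 0.205%, 0.0146% and 1.39% were then called, with a spread of 0.56 in CC and an r of 0.83. Without both HOMO 1 libraries, the shallowest, there were 67 calls in CC, with 6.47% of all peaks called. The spread was then 0.64 in CB and 0.62 in CC. At single named peaks, 580 of 640 recomputed values kept their direction and call, 60 kept only the direction and 0 reversed. Some of these settings could hardly move a value. The setting without a filter repeats the main fit, and a library left out from outside the groups compared leaves a fold change nearly as it was. The peaks were also picked for their calls in these data, so the tally does not measure how firm the calls are.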
